A study of Mus musculus with 4 samples.

Results

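The replication-dependent histone genes are described here in 4 scATAC-Seq libraries of mouse liver hepatocytes. Members were the protein-coding genes of GENCODE vM21 (mm10) whose symbol begins with Hist1h, Hist2h, Hist3h or Hist4h, which gave 67 of 21951 protein-coding genes. They encode 6 linker histones (H1), 18 H2A, 18 H2B, 12 H3 and 13 H4 proteins. The level of a gene was the sum of counts in the called peaks that overlap the gene or 1 kb on either side of it, in counts per 1000000 counts of the library (CPM), over barcodes with at least 1000 counts, called nuclei here. Where 1 peak lay over several histone genes, it was counted once in any sum.

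Histones package DNA into nucleosomes: H2A, H2B, H3 and H4 form the core, and H1 binds the linker DNA between cores. The replication-dependent genes supply them while DNA is copied in S phase, are transcribed at nuclear histone locus bodies that hold the factor NPAT, and make mRNAs that end in a conserved stem-loop instead of a poly(A) tail. Hepatocytes of the adult liver are mostly quiescent and enter the cell cycle once liver mass is removed surgically, as in partial hepatectomy (PHx).

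The mice were adult male C57BL/6J animals, 10 to 12 weeks old by the labels (the methods give a slightly younger age at surgery), fed a normal diet. Collagenase perfusion released the hepatocytes of undamaged liver (PHx 0 h) or of liver 48, 72 or 96 h after surgery, and each time had 1 library. The 0 and 48 h libraries came from 1 hepatocyte preparation each, and no source used here states whether the 72 and 96 h libraries pooled animals. Library, animal and time therefore cannot be told apart, no test between times was possible, and the exact 95% Poisson intervals given below, computed on counts divided by 2 because most fragments count at both ends, cover counting error only.

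The 4 libraries held 3977, 3892, 4256 and 3224 nuclei at 0, 48, 72 and 96 h, with 136582768, 62000846, 24724883 and 14935507 counts in peaks. Median counts per nucleus ranged from 26005 at 0 h to 3682 at 96 h. Pairs of libraries shared 681 to 882 barcodes by sequence, of which 27 to 60 passed the minimum in both. All 10 hepatocyte markers had a peak in every library, and their summed level was 4264, 5189, 3567 and 4994 CPM. Summed levels of the other marker lists were 268, 281, 354 and 206 CPM for endothelial cells, 534, 585, 565 and 497 CPM for Kupffer and myeloid cells, 85.1, 127, 166 and 133 CPM for stellate and mesenchymal cells, 155, 130, 142 and 148 CPM for cholangiocytes, and 46.9, 46.2, 40.2 and 55.2 CPM for lymphocytes. A peak was present over 9, 10, 10 and 9 of 10 endothelial, 5, 8, 9 and 5 of 10 myeloid, 7, 7, 8 and 5 of 8 mesenchymal, 4, 6, 7 and 4 of 7 cholangiocyte and 2, 3, 2 and 1 of 8 lymphocyte markers. Of the myeloid list, Cx3cr1 held most of the sum (363, 341, 380 and 386 CPM), Cd68 held 101, 103, 33.0 and 9.24 CPM, Csf1r held 21.2, 58.4, 72.4 and 38.1 CPM, and Clec4f held 11.1 and 10.2 CPM at 48 and 72 h alone, while Cd79a held 46.8 of the 46.9 CPM of the lymphocyte list at 0 h. Vsig4, Cd3g, Ms4a1, Nkg7, Klrb1c and Il7r had no called peak in any library, and Krt19 had one at 72 h alone, at 0.324 CPM. The part of these lists in the histone results below was not tested.

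The stem-loop that marks this class of gene was searched for as a 6-base stem and 4-base loop in the 150 bases after the stop codon. It was present in 65 of 67 members, against 0.892% of the 21752 protein-coding genes with an annotated stop codon, and was not found in this window for Hist2h2be and Hist1h2an. There were 8 kinds, and the commonest was shared by 41 members of different histone types. The forms of 3 genes whose levels are compared below are shown on the gene's own strand of GRCm38 (mm10), with the paired stem in capitals.
Hist1h1c, chr13:23739512-23739527, plus strand: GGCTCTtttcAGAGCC
Hist1h4b, chr13:23757366-23757381, plus strand: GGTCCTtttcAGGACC
Hist4h4, chr6:136803998-136804013, minus strand: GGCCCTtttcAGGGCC

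Promoters, taken as 250 bases before to 50 bases after the annotated start, were searched on both strands for short elements known from histone genes. The motif GGTCCG, the core of the H4 subtype element, was in 12 of 13 H4 promoters, in 2 of 12 H3 and 1 of 18 H2B promoters, in no H1 or H2A promoter and in 9.6% of the 21938 protein-coding promoters. CCAAT was in all 18 H2A and all 18 H2B promoters, in 11 of 12 H3, 5 of 6 H1 and 4 of 13 H4 promoters, and in 39.0% of all. The octamer ATTTGCAT, bound by OCT1, was in 8 of 18 H2B and 7 of 18 H2A promoters, in no H1, H3 or H4 promoter and in 1.57% of all. The H1 box AAACACA was in 4 of 6 H1, 3 of 18 H2B, 1 of 18 H2A and 1 of 12 H3 promoters, in no H4 promoter and in 6.4% of all. TATAAA was in 37 of 67 members (55.2%) and in 12.6% of all. The occurrences of GGTCCG and CCAAT can overlap. A match describes these letters in these windows and is no measurement of binding.

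Promoters of 4 members are shown 5′ to 3′ on the gene's strand of GRCm38, with the matched motifs in capitals. Hist1h1c lay under the longest histone peak, Hist1h2bg in the block that held the member with the highest ratio at 48 h, Hist1h4b among the lowest members, and Hist4h4 had the highest ratio at 96 h. Hist1h1c (chr13:23738558-23738857, plus strand) held an H1 box followed by CCAAT, Hist1h2bg (chr13:23571146-23571445, plus strand) held CCAAT on either strand, the octamer and TATAAA, and Hist1h4b (chr13:23756763-23757062, plus strand) and Hist4h4 (chr6:136804366-136804665, minus strand) held GGTCCG alone of the motifs searched.
Hist1h1c: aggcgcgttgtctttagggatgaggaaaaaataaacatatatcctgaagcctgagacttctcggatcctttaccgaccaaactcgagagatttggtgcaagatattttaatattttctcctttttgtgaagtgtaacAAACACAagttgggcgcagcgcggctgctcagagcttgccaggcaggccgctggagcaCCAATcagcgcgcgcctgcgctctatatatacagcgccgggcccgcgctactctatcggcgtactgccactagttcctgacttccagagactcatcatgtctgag
Hist1h2bg: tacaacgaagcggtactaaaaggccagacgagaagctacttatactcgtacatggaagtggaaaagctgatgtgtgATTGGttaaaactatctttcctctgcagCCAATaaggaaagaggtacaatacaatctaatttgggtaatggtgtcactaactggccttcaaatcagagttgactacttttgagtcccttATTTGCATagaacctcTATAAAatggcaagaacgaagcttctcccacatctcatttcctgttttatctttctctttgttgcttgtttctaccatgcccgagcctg
Hist1h4b: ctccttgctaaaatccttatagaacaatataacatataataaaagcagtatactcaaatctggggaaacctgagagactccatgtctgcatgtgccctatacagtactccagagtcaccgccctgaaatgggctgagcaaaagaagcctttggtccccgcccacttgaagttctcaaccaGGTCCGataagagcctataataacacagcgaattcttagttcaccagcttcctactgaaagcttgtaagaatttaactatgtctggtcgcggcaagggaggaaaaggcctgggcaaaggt
Hist4h4: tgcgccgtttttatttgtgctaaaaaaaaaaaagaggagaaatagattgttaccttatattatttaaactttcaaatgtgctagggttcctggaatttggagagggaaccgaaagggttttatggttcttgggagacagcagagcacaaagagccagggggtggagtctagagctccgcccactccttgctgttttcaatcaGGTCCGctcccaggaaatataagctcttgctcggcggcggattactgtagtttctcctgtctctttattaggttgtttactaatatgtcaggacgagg

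The genes lay in 7 clusters separated by more than 100 kb. Chromosome 13 held 54 genes, in groups of 18 (chr13:21715763-21837530), 5 (chr13:22035164-22043676), 29 (chr13:23531050-23764406) and 2 (chr13:23933773-23934851). Chromosome 3 held 10 (chr3:96219865-96270132), chromosome 11 held 2 (chr11:58948920-58956830), and chromosome 6 held Hist4h4 alone (chr6:136801553-136804415). Peaks over members numbered 46, 43, 48 and 47 at 0, 48, 72 and 96 h, with 61, 61, 60 and 54 of 67 members under at least 1 peak. The annotated start lay in a peak for 56, 56, 54 and 50 members (83.6%, 83.6%, 80.6% and 74.6%), against 59.4%, 62.8%, 62.0% and 54.2% of all protein-coding genes. Histone peaks were long: their median length was 2116, 2479, 1733 and 816 bp, against 714, 622, 503 and 505 bp for all peaks of the same libraries. Between 20 and 24 of these peaks in each library lay over more than 1 member, so counts could not be assigned to single genes within such a locus. Joined through shared peaks, the 61 members ever under a peak made 29 loci.

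In sum over these loci, the level at 48 h was close to that of undamaged liver, and the levels at 72 and 96 h were lower. Undamaged liver held 1119 CPM in sum (95% interval 1111 to 1127), 48 h held 1143 CPM (1131 to 1155), 72 h held 767 CPM (752 to 783) and 96 h held 681 CPM (662 to 700). Relative to 0 h, the log2 ratio was 0.03 (95% interval 0.01 to 0.05) for 48 h, -0.54 (-0.58 to -0.51) for 72 h and -0.72 (-0.76 to -0.68) for 96 h. The sum moved with how much sequence was called: covered peak length was 129998, 159125, 110241 and 49385 bp. Per kb of covered length the summed level was 8.61, 7.18, 6.96 and 13.8 CPM, while all peaks of the same libraries held 6.51, 5.59, 7.08 and 16.4 CPM per kb. The histone loci thus held 1.32 and 1.29 times the density of all peaks at 0 and 48 h, 0.983 times at 72 h and 0.839 times at 96 h.

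**Figure D1:**
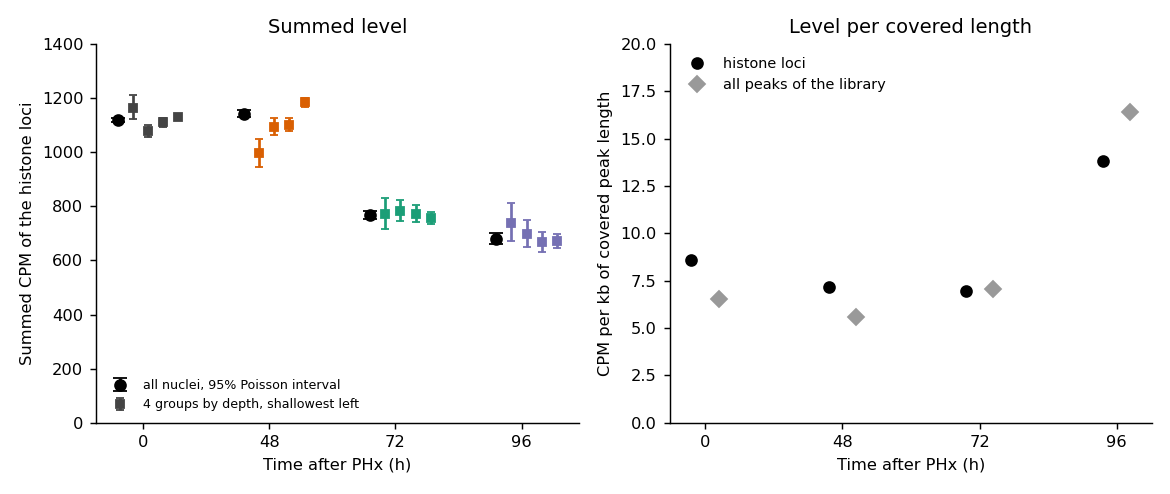
Left, summed CPM of the histone loci by time after PHx, for all nuclei (black) and for 4 equal groups of nuclei ordered by depth (coloured squares, shallowest on the left of each group), with exact 95% Poisson intervals for counting error. Right, CPM per kb of covered peak length in the histone loci (black circles) and in all peaks of the library (grey diamonds). The sums at 72 and 96 h (767 and 681 CPM) lie below those at 0 and 48 h (1119 and 1143 CPM), and the density of the histone loci passes from above to below that of all peaks.

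Gene by gene, ratios were taken for members with a peak in both libraries and a mean of at least 5 CPM, as log2 of CPM plus a pseudocount of 1. At 48 h, 57 members had a ratio, with a median of 0.04 (quartiles -0.17 and 0.46), against -0.03 over 15527 genes. At 72 h the median of 57 members was -0.52 (quartiles -0.73 and -0.22), against -0.01 over 15519 genes, and 49 of 57 lay below the median of all genes. At 96 h the median of 54 members was -0.62 (quartiles -1.02 and -0.35), against 0.08 over 15384 genes, and 53 of 54 lay below the median of all genes. Of the 54 members with both ratios, 47 were below their 0 h level at 72 h and at 96 h. Of all genes, each time taken alone, 50.5% were below their 0 h level at 72 h and 44.8% at 96 h.

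The fold of 2 picked out few members at 48 h and more at 96 h. At 48 h, 8 of 57 members (14.0%) were at least 2-fold higher, beside 5.22% of all genes, and 0 were at least 2-fold lower, beside 1.67%. The 8 lay in 3 loci, each under 1 long peak at 48 h, so they are not separate measurements. At 72 h, 3 of 57 were at least 2-fold higher (5.26%, beside 9.87% of all genes) and 5 at least 2-fold lower (8.77%, beside 5.64%). At 96 h, 0 of 54 were at least 2-fold higher, beside 5.05%, and 16 were at least 2-fold lower (29.6%, beside 7.79%), in 8 loci.

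Calls on single members also followed how peaks were joined or split, so each locus was also taken as a whole, by the log2 ratio of its summed CPM with no pseudocount, as for all sums here, and no minimum level. None of the 3 loci with a higher member at 48 h was 2-fold higher in sum (log2 ratios 0.23 to 0.64), nor was the 1 at 72 h (0.16), and neither of the 2 loci with a lower member at 72 h was 2-fold lower (-0.72 and -0.63). Of the 8 loci at 96 h, 2 were at least 2-fold lower in sum. These were that of Hist1h1c (-1.10, and 0.91 per kb) and that of Hist2h2aa1 and Hist2h3c1 (-3.00, and 0.96 per kb). The latter sets 458 bp of peak at 96 h against 7129 bp at 0 h. The other 6 loci had ratios of -0.97 to -0.33. Among loci with no called member, that of Hist2h3c2 and Hist2h2aa2 (1.01, and 0.76 per kb) and Hist1h4n (1.85, and 0.02 per kb) were at least 2-fold higher at 48 h, and Hist1h4k and Hist1h4b (both -1.07, and 1.12 and 0.50 per kb) at least 2-fold lower at 96 h. In all, 2 of 29 loci were at least 2-fold higher at 48 h, 0 of 28 past the fold at 72 h and 4 of 25 at least 2-fold lower at 96 h. By the same rule, applied to single genes with a peak at both times, 8.41% of all genes were higher and 1.96% lower at 48 h, 13.6% higher and 5.95% lower at 72 h, and 7.16% higher and 8.6% lower at 96 h. Over all loci with a peak at both times the median ratio was 0.05 over 29 loci at 48 h, -0.38 over 28 at 72 h and -0.58 over 25 at 96 h, where 23 of 25 were below 0. Among all single genes with a mean of at least 5 CPM, 44.8% were below 0 at 96 h.

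**Figure D2:**
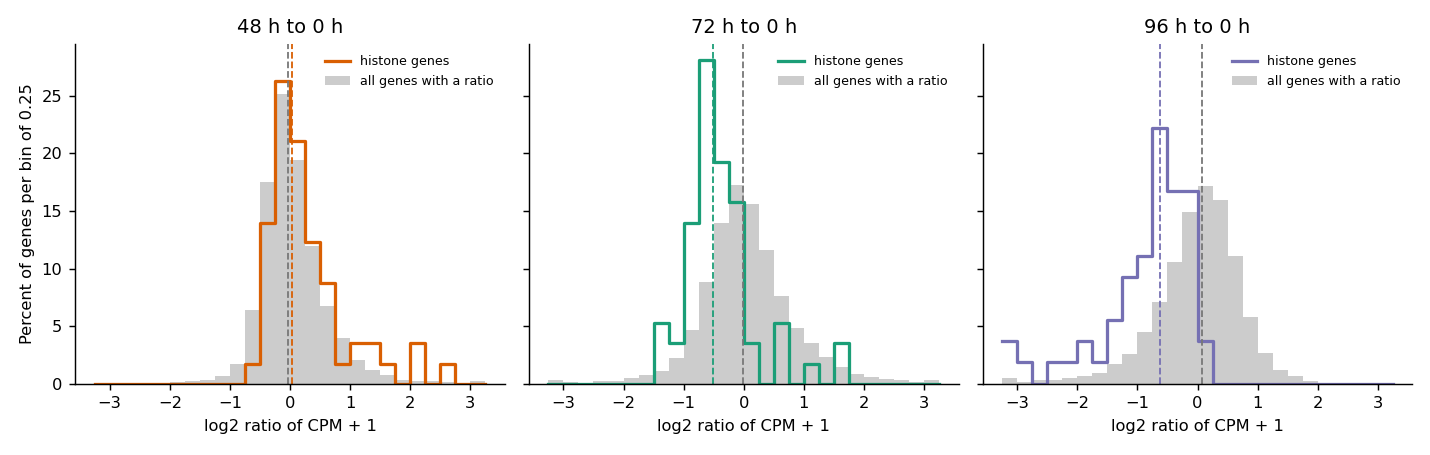
Distribution of the log2 ratio of CPM + 1 to 0 h at 48, 72 and 96 h, as percent of genes per bin of 0.25, for histone genes (coloured line) and all protein-coding genes with a ratio (grey bars, the end bins also holding values beyond the axis); dashed lines are medians. The histone median is at 0.04, -0.52 and -0.62, and that of all genes at -0.03, -0.01 and 0.08.

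Peak length was set beside these ratios in the same libraries. Across members, the log2 ratio of counts and that of covered length had Pearson correlations of 0.89, 0.91 and 0.89 at 48, 72 and 96 h, and 0.87, 0.90 and 0.84 across all genes, where genes share a library and neighbouring members share peaks. Per kb of covered length, the median of the members was -0.30 at 48 h, against -0.22 for all genes, -0.29 at 72 h, against 0.16, and 0.56 at 96 h, against 1.26. Relative to all genes the members therefore differed by -0.08, -0.45 and -0.70 per kb, beside 0.07, -0.51 and -0.70 in counts. In peaks of nearly equal length (within 10%), 22 members had a median of -0.17 at 48 h, against -0.15 for all such genes, and 21 members had a median of -0.26 at 72 h, against 0.20. No histone locus kept its length within 10% at 96 h, so that comparison could not be made there.

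**Figure D3:**
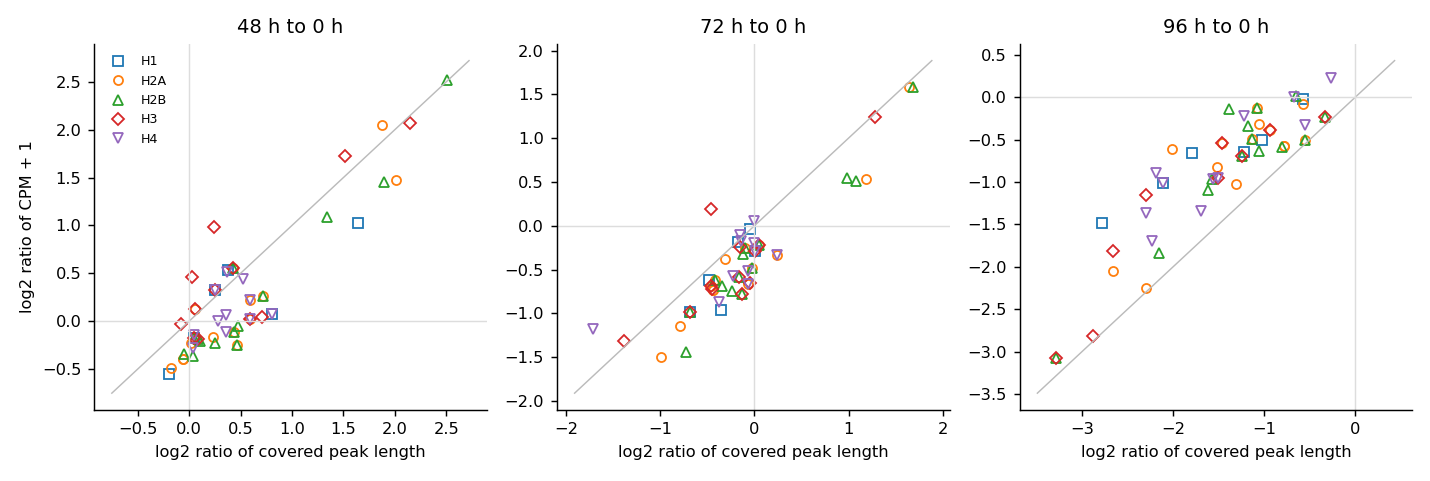
For each histone gene with a ratio, the log2 ratio of CPM + 1 to 0 h against the log2 ratio of covered peak length, at 48, 72 and 96 h, with symbols by histone type and the grey line marking equal change. Points run along the line at 48 and 72 h (r = 0.89 and 0.91), and at 96 h all 54 lie left of 0 in length and above the line.

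The linker histones are the H1 genes, all on chromosome 13. Their windows together held 444 CPM at 0 h, 458 CPM at 48 h, 277 CPM at 72 h and 230 CPM at 96 h. Hist1h1c (ENSMUSG00000036181.2), one of the main somatic H1 genes, lay under the longest and highest histone peak, chr13:23728639-23747576 at 0 h, together with Hist1h3c and Hist1h2bb. That peak was 18938 bp long at 0 h, 19607 bp at 48 h and 11807 bp at 72 h. At 96 h separate peaks lay over Hist1h1c (2764 bp) and over Hist1h3c and Hist1h2bb (1936 bp).

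The Hist1h1c locus held 194 CPM (191 to 198), 172 CPM (168 to 177), 97.3 CPM (91.8 to 103) and 90.9 CPM (84.1 to 98.0) at 0, 48, 72 and 96 h. It made up 17.4%, 15.1%, 12.7% and 13.3% of the summed histone level, and its 72 and 96 h values lay below its 0 and 48 h values. Its density was 10.3, 8.79, 8.24 and 19.3 CPM per kb. Over Hist1h1c alone the 96 h peak held 68.6 CPM, and over Hist1h3c and Hist1h2bb 22.3 CPM, which gave log2 ratios of -1.49 and of -3.07, the lowest of any member at 96 h. The latter sets a 1936 bp peak against the whole 18938 bp peak of 0 h. The locus as a whole had a log2 ratio of -1.10, and the ratio per kb was 1.29 for Hist1h1c and 0.22 for Hist1h3c and Hist1h2bb.

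Hist1h1e, another somatic H1 gene, held 82.8, 56.2, 42.0 and 52.5 CPM, and had the largest fall of any member at 48 h (log2 ratio -0.55). Its covered length was 4703, 4118, 3689 and 2022 bp at 0, 48, 72 and 96 h. Hist1h1d held 55.5, 80.6, 54.0 and 34.7 CPM, highest at 48 h and lowest at 96 h. Only at 48 h did its window also meet the peak over Hist1h4f, of 18.4 CPM. The peak that Hist1h1d shared with Hist1h3e held 55.5 CPM at 0 h and 62.2 CPM at 48 h. Hist1h1a held 42.7, 53.8, 34.9 and 29.9 CPM, also highest at 48 h and lowest at 96 h. At 0, 48 and 72 h it lay under 1 peak shared with Hist1h4a and Hist1h3a, so those values cannot be assigned to it. Its ratio per kb at 48 h was 0.07. Hist1h1b held 22.3, 46.6, 19.6 and 22.0 CPM, with a log2 ratio of 1.03 at 48 h, but of -0.61 per kb. At 48 h its window and that of Hist1h3i fell under 1 peak of 8069 bp, while at 0 h they had separate peaks of 2592 and 1822 bp. Hist1h1t, the testis H1 gene, held 46.0, 48.8, 29.6 and 22.3 CPM and lay in peaks shared with Hist1h4c or Hist1h2bc, except for a peak of 3.32 CPM over Hist1h1t alone at 72 h. The rest of its level cannot be assigned to it.

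The largest rises at 48 h were in 1 block of 5 genes, Hist1h2ae, Hist1h2bg, Hist1h2bf, Hist1h2ad and Hist1h3d, and at Hist1h3i. The block lay under 5 peaks at 0 h and under 1 peak at 48 h, chr13:23570079-23577964, 7886 bp long. Its summed level was 28.3 CPM (27.1 to 29.6), 44.2 CPM (41.9 to 46.6), 31.6 CPM (28.5 to 34.9) and 18.3 CPM (15.3 to 21.6), higher at 48 h than at the other times. Per kb it was 5.79, 5.60, 4.70 and 12.4 CPM, so that the density at 48 h was close to that at 0 h. The gene ratios at 48 h in the block ran from 1.45 for Hist1h2bg to 2.52 for Hist1h2bf, and those of Hist1h2ad, Hist1h3d and Hist1h2ae were 2.05, 1.72 and 1.47. Hist1h3i held 10.4, 46.6, 5.90 and 4.08 CPM, and its log2 ratio was 2.07 at 48 h and -1.16 at 96 h. For the Hist1h1b and Hist1h3i locus as a whole the level was 32.7, 46.6, 25.5 and 26.0 CPM, a log2 ratio of 0.51 at 48 h and of -0.36 per kb.

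**Figure D4:**
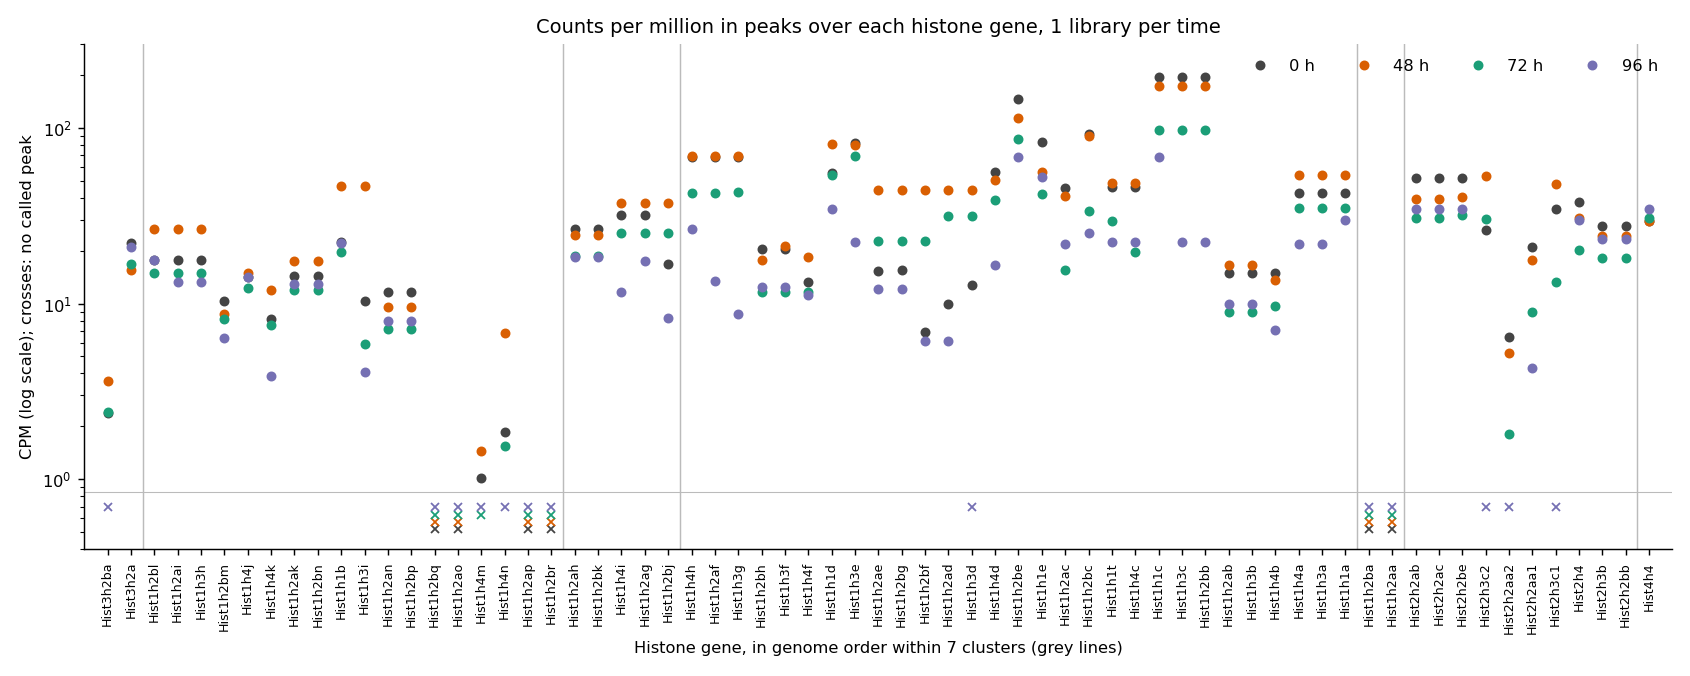
CPM (log axis) in peaks over each of the 67 histone genes, in genome order within the 7 clusters, with 1 point per library; crosses below the grey line mark genes with no called peak in that library. Neighbouring genes with equal values lie under the same peak. The Hist1h1c, Hist1h3c and Hist1h2bb points reach 194 CPM at 0 h, and the block from Hist1h2ae to Hist1h3d stands at 44.2 CPM at 48 h.

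Among members with a peak in every library, the 5 with the highest mean level were Hist1h1c, Hist1h3c, Hist1h2bb, Hist1h2be and Hist1h3e, with 9594 to 18938 bp of peaks each at 0 h. Hist1h2be, an H2B gene, held 145, 114, 85.9 and 67.8 CPM over 4, 4, 4 and 6 peaks, but its annotated model runs as far as Hist1h1e and takes in the Hist1h1e peak. Hist1h3e, an H3 gene, held 81.8, 80.1, 69.3 and 22.4 CPM, over 9594, 9113, 8621 and 1522 bp. The 96 h value was the lowest for both.

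The 5 lowest were Hist1h4k, Hist1h2bm, Hist1h2an, Hist1h2bp and Hist1h4b. Hist1h4k held 8.14, 12.0, 7.52 and 3.88 CPM. Hist1h2bm held 10.4, 8.69, 8.13 and 6.36 CPM. Hist1h2an and Hist1h2bp, an H2A and an H2B gene under 1 peak, held 11.6, 9.56, 7.20 and 7.97 CPM. Hist1h4b held 14.9, 13.7, 9.67 and 7.10 CPM, with a density of 9.80, 7.04, 7.45 and 13.8 CPM per kb, so per length it stood at or above all peaks of the library except at 96 h. Each of these genes was lower at 72 and 96 h than at 0 h.

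By histone type, the median gene ratio at 72 h was -0.45 for H1, -0.55 for H2A, -0.53 for H2B, -0.62 for H3 and -0.33 for H4. At 96 h it was -0.66, -0.56, -0.54, -0.95 and -0.95 in the same order, and the members at least 2-fold lower were 2 of 6 H1, 3 of 14 H2A, 3 of 14 H2B, 4 of 9 H3 and 4 of 11 H4 (33.3%, 21.4%, 21.4%, 44.4% and 36.4%, beside 7.79% of all genes). At 48 h the medians were 0.20, -0.04, -0.14, 0.23 and 0.07. Per kb of covered length the medians at 96 h were 0.83, 0.58, 0.55, 0.56 and 0.59, against 1.26 for all genes. At 72 h they were -0.22, -0.29, -0.38, -0.27 and -0.29 per kb, against 0.16. At 48 h they were -0.29, -0.35, -0.35, 0.06 and -0.29 per kb, against -0.22. Genes of different types share peaks, so the types are not independent of each other. The locus of Hist1h4h, Hist1h2af and Hist1h3g held 68.1, 69.1, 42.9 and 39.9 CPM in sum, and Hist1h3g within it had a ratio of -2.82 at 96 h, where its window met a peak of 816 bp alone. The ratio of that locus as a whole was -0.77.

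Over the clusters, the 29 genes of the large chromosome 13 group held 717, 693, 460 and 406 CPM, log2 ratios of -0.05, -0.64 and -0.82. The group of 18 held 112, 144, 88.9 and 89.2 CPM, with ratios of 0.36, -0.33 and -0.33, and the group of 5 held 58.2, 61.6, 43.8 and 38.4 CPM, with ratios of 0.08, -0.41 and -0.60. The 10 genes on chromosome 3 held 178, 196, 124 and 91.6 CPM, with ratios of 0.14, -0.52 and -0.96. Each of these 4 groups was lower at 72 and at 96 h than at 0 h. On chromosome 3, the locus of Hist2h3c2 and Hist2h2aa2 (1.01) and that of Hist2h2aa1 and Hist2h3c1 (0.47) rose at 48 h. Windows of these 4 genes were only partly unique in sequence, as described below. The other loci there fell (-0.36, -0.29 and -0.19). At 96 h the Hist2h3c2 locus had no peak, the Hist2h2aa1 locus had a ratio of -3.00, and the other loci had -0.60, -0.34 and -0.25. Per kb of covered length, the ratios at 48, 72 and 96 h were -0.29, -0.40 and 0.67 for the group of 29, -0.29, -0.14 and 0.76 for the group of 18, -0.45, -0.54 and 0.35 for the group of 5 and 0.04, -0.09 and 0.79 for the genes on chromosome 3, so that the rises of the groups of 18 and 5 at 48 h and the falls of all 4 groups at 96 h turned in direction.

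Of the members outside chromosome 13, Hist4h4 on chromosome 6 had the same or a higher level after PHx. It held 29.5 CPM (28.2 to 30.8), 29.5 CPM (27.6 to 31.5), 30.6 CPM (27.6 to 33.9) and 34.7 CPM (30.6 to 39.2). The log2 ratio was 0.00, 0.05 and 0.23, the highest of any member at 96 h, followed by Hist1h2bl (0.01) and Hist1h4j (0.00). Its peak shortened from 2330 bp (0 h) to 1929 bp (96 h), and its density of 12.6, 10.4, 13.2 and 18.0 CPM per kb was above that of all peaks at every time. Per kb its log2 ratios at 48, 72 and 96 h were -0.28, 0.06 and 0.50. The medians per kb were -0.30, -0.29 and 0.56 for the members and -0.22, 0.16 and 1.26 for all genes.

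On chromosome 11, Hist3h2a held 22.2, 15.5, 16.9 and 20.9 CPM, a log2 ratio of -0.49 at 48 h and of -0.08 at 96 h, in peaks that also met the neighbouring Trim17 in every library. Hist3h2ba held 2.37, 3.61 and 2.43 CPM at 0, 48 and 72 h and had no peak at 96 h. On chromosome 3, Hist2h2ab and Hist2h2ac, converging H2A genes under 1 peak, held 51.9, 39.5, 30.8 and 34.3 CPM, and the neighbouring Hist2h2be held 52.1, 40.5, 32.0 and 34.3 CPM. That peak also covered Bola1, a gene that is no histone. These 3 were among the 5 largest falls at 48 h (-0.39, -0.39 and -0.36).

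Hist2h4 held 37.6, 30.8, 20.2 and 29.8 CPM, and Hist2h3b and Hist2h2bb under 1 peak held 27.6, 24.2, 18.1 and 23.2 CPM, so all 3 were lowest at 72 h. The duplicated genes of the same cluster did otherwise. Hist2h3c2 held 26.3, 52.9 and 30.1 CPM at 0, 48 and 72 h, and Hist2h3c1 34.3, 47.6 and 13.2 CPM, and neither had a peak at 96 h. Hist2h2aa2 held 6.48, 5.23 and 1.82 CPM with no peak at 96 h, and Hist2h2aa1 held 20.9, 17.6, 8.94 and 4.29 CPM. The windows of these 4 genes were 35.7% to 59.4% unique, as described next.

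Some histone genes lie in near-identical tandem copies, where reads have no single place in the genome. Each window was scored by the share of its runs of 50 bases that occur once on the 21 chromosomes. Of 6 members under 20% unique, none had a peak in every library, and 4 had none in any: Hist1h2bq and Hist1h2br, both at 0%, and Hist1h2ao and Hist1h2ap, at 2.1% and 1.7%. The other two, Hist1h4m at 5.8% and Hist1h4n at 11.5%, have promoters that differ at 1 of 300 positions. Hist1h4m held 1.02 and 1.45 CPM at 0 and 48 h and had no peak afterwards. Hist1h4n held 1.87, 6.76 and 1.54 CPM and had no peak at 96 h. For these 6 the files cannot show whether the promoters were open.

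Among the 39 members at least 80% unique, 35 had a peak in every library. Hist1h2ba and Hist1h2aa, a divergent pair known from testis, were 94.1% and 93.9% unique and had no called peak in any library. Their promoters held CCAAT, the octamer and TATAAA. The files list called peaks alone, so accessibility below the calling threshold is not shown. Hist1h3d, 89.0% unique, held 12.8, 44.2 and 31.6 CPM and had no peak at 96 h, and Hist3h2ba, at 94.7%, is the other gene of this kind.

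**Figure D5:**
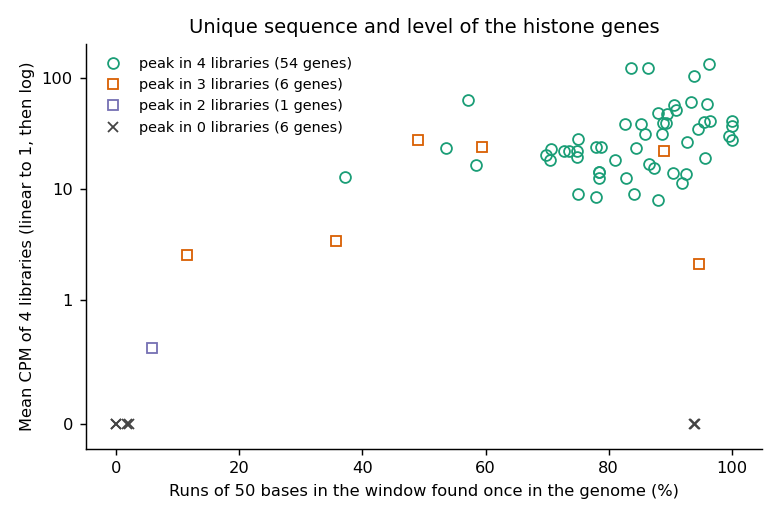
Mean CPM of the 4 libraries for each histone gene against the share of runs of 50 bases in its window found once in the genome, with symbols by the number of libraries with a called peak; the vertical axis is linear up to 1 CPM and logarithmic above. The 6 genes under 20% unique lie below 3 CPM, while the crosses at 0 CPM on the right are Hist1h2ba and Hist1h2aa.

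At the level of single nuclei, counts were drawn at random down to 1000 per nucleus so that depth was equal. A count in the histone loci was present in 62.7% of 3977 nuclei of undamaged liver (exact binomial 95% interval 61.2 to 64.2), then in 58.5% of 3892 nuclei of 48 h (57.0 to 60.1), 46.8% of 4256 of 72 h (45.2 to 48.3) and 43.3% of 3224 of 96 h (41.6 to 45.1). Without equal depth the shares were 95.1%, 90.9%, 75.6% and 68.9%. The mean number of histone counts per nucleus at equal depth was 1.12, 1.09, 0.772 and 0.701. These shares depend on the same called peaks as the sums and are no further measurement of them.

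Within a library all nuclei share the same peaks, so nuclei of different depth can be set side by side without a difference in peak length. The nuclei of each library were put in 4 equal groups by depth. At 48 h the summed histone level was 997 CPM (946 to 1049) in the shallowest group, 1095 CPM (1063 to 1127) and 1102 CPM (1079 to 1126) in the middle groups, and 1184 CPM (1168 to 1201) in the deepest. The log2 ratio of the deepest to the shallowest group was 0.25 (0.17 to 0.33) in the 48 h library. In the libraries of 0, 72 and 96 h it was -0.04 (-0.10 to 0.01), -0.03 (-0.14 to 0.09) and -0.14 (-0.28 to 0.01). The interval lay above 0 at 48 h and included 0 at the other times.

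The same ratio at 48 h was 0.03 (-0.04 to 0.09) for 44 DNA replication genes, 0.00 (-0.07 to 0.07) for 29 genes of histone supply and -0.02 (-0.12 to 0.08) for 14 replication-independent histone genes. It was 0.16 (0.13 to 0.20) for the hepatocyte markers and -0.36 (-0.49 to -0.22) for the endothelial markers. For the hepatocyte markers it was also above 0 at 0, 72 and 96 h (0.13, 0.37 and 0.23), times at which the histone ratio was not. The part of cell makeup in the histone values was not tested.

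Replication-independent histone genes supply variants such as H3.3, H2A.Z and H1.0 outside S phase. Of 14, 11 had a ratio at each time. At 48 h 0 were at least 2-fold higher or lower, at 72 h 1 was higher and 1 lower, and at 96 h none of the 11 was past the fold. Of all genes 5.22% were higher and 1.67% lower at 48 h. Beside the 9.09% in either direction at 72 h, 9.87% of all genes were higher and 5.64% lower, and at 96 h 5.05% and 7.79%. Their median was 0.09, -0.11 and 0.08 at 48, 72 and 96 h, and per kb -0.44, 0.01 and 1.02. Their summed level was 702, 622, 583 and 685 CPM, lower than at 0 h at 48 and 72 h and close to it at 96 h.

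The 5 of them with the largest ratio in either direction at 48 h were H2afy2 (0.83) and H2afy (0.81), which encode macroH2A proteins, H1f0 (-0.78), the linker histone of quiescent cells, H1fx (0.60) and H2afv (-0.59). H1f0 held 111, 64.6, 40.7 and 57.2 CPM, highest at 0 h. H1fx held 6.08, 9.71, 15.4 and 11.1 CPM, lowest at 0 h. H2afy held 29.7, 52.8, 45.4 and 34.7 CPM in 6, 19, 12 and 1 peaks, and per kb its ratio at 48 h was -1.23.

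Genes of histone supply regulate histone transcription, process the 3′ end of histone mRNA or carry histones to DNA. Of 29, 0 were at least 2-fold higher at any time, and 1 was at least 2-fold lower at each: Npat at 48 h, and Sympk, a 3′ end processing scaffold, at 72 and 96 h. That is 3.45% lower at each time, beside 1.67%, 5.64% and 7.79% of all genes, with 5.22%, 9.87% and 5.05% of all genes higher. Their median was -0.16, -0.12 and 0.20, and their summed level was 1409, 1284, 1186 and 1428 CPM. Sympk had log2 ratios of -1.69 and -1.84 at 72 and 96 h, but of -0.32 and 1.72 per kb. Its peaks covered 29440, 11380 and 2502 bp at 0, 72 and 96 h. Npat, whose product drives histone gene transcription, held 66.5, 32.2, 35.9 and 49.2 CPM. Its log2 ratio at 48 h was -1.02, but 0.68 per kb, as its peaks covered less sequence at 48 h.

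The next largest ratios of this list at 48 h were Hinfp (-0.75), which binds H4 promoters, Chaf1a (0.73), a subunit of the chromatin assembly factor CAF-1, Daxx (-0.56), an H3.3 chaperone, and Casp8ap2 (-0.43), a histone locus body protein. Hinfp held 25.7, 15.0, 22.1 and 26.5 CPM, lowest at 48 h. Chaf1a held 29.2, 49.1, 22.6 and 19.7 CPM, highest at 48 h, but its ratio per kb at 48 h was -0.38, with the covered length going from 6502 to 13997 bp. Slbp, which encodes the protein that binds the stem-loop, held 35.0, 28.1, 30.2 and 40.4 CPM.

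The median ratio of the 44 DNA replication genes was -0.03, -0.09 and 0.07, with 2, 0 and 0 at least 2-fold higher (4.55%, 0% and 0%, beside 5.22%, 9.87% and 5.05% of all genes) and 0, 2 and 3 at least 2-fold lower (0%, 4.55% and 6.82%, beside 1.67%, 5.64% and 7.79%). Their summed level was 1513, 1577, 1334 and 1470 CPM. The 2 higher at 48 h were Pcna, the sliding clamp of DNA polymerase, with 47.0, 114, 60.3 and 55.0 CPM, and Mcm6, a subunit of the replicative helicase, with 21.5, 52.6, 41.6 and 36.4 CPM. Per kb their ratios at 48 h were -0.19 and -0.21. The lower ones were Fen1, the flap endonuclease of lagging strand synthesis, with ratios of -2.19 at 72 h and -2.60 at 96 h, Mcm10, a replication initiation factor, with -1.24 and -1.06, and at 96 h Tk1, a thymidine kinase, with -1.93. Per kb these were -0.12 and 0.97 for Fen1, -0.08 and 0.85 for Mcm10, and 0.53 for Tk1.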

How the data were processed

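Libraries were made with the Chromium Single Cell ATAC kit. The deposited matrices hold whole-number counts of cut sites per peak and barcode, which the authors made with Cell Ranger ATAC, version 1.1.0 per the file headers, on mm10 per the submitters' processing notes; peaks were called in each library separately, and the other deposited files list peak positions and barcodes. Between 87.3% and 88.6% of values were even. No source used here gives the study's own cutoffs on nuclei. No doublet caller was run.

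Gene models were GENCODE vM21, and sequence was read from GRCm38 (mm10). Counts of nuclei with at least 1000 counts were summed and scaled to 1000000 counts. With 1 library per time no test was run; a fold of 2 was called on log2(CPM + 1) among genes with a peak in both libraries and a mean of at least 5 CPM. Ratio intervals were exact binomial intervals conditional on the summed counts. Ratio and interval code was checked on simulated data. Members and gene lists were chosen with earlier results of these data known. Named genes were the 5 highest and 5 lowest in mean CPM, the 5 largest rises and falls at 48 h and 3 at 96 h, every H1 gene, members outside chromosome 13 and members lacking a peak; of the histone supply and replication-independent lists, the 5 largest ratios at 48 h, with Slbp and the DNA replication genes named after their values were seen. Alternatives are given in the closing section. Python 3.11.15, numpy 2.4.6, scipy 1.17.1 and pandas 2.3.3 were used.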

Additional observations from a re-analysis of the deposited data

Results flagged for a closer look

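Barcodes with fewer than 1000 counts entered no comparison above, and they held counts in the histone loci above the level that 3 counts would give (3.43 to 8.18 CPM). The summed level in them was 1255 CPM in 668 barcodes at 0 h, 1155 CPM in 1081 at 48 h, 971 CPM in 1444 at 72 h and 936 CPM in 1675 at 96 h. The values at 72 and 96 h were below those at 0 and 48 h in these barcodes too, with 95% intervals of 1098 to 1428, 1032 to 1289, 878 to 1072 and 847 to 1031 CPM. They use the same peaks as the nuclei, so peak length moved with them in the same way.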

How the results depend on the processing

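No paired analysis was possible because each time point had 1 library. The summed ratio at 72 h stayed below 0 in every alternative run, that at 96 h in every one except per kb of covered length, and that at 48 h changed sign. At 48 h (0.03) it was -0.17 in nuclei of 3000 to 10000 counts, -0.09 in near-equal peak lengths, -0.26 per kb, -0.09 in windows at least 80% unique, 0.11 over shared regions, 0.16 over promoter peaks and 0.07 without the Hist1h1c locus. At 72 h (-0.54) the same settings gave -0.62, -0.28, -0.31, -0.67, -0.48, -0.34 and -0.47, and start sites plus 1 kb gave -0.70, gene bodies alone -0.60 and binarised counts -0.36. At 96 h (-0.72) they gave -0.79, 0.68 per kb, -0.61, -0.82, -0.66, -0.65, -0.82 for start sites and -0.44 binarised; near-equal lengths could not be run. Per kb at 96 h all genes shifted too, by a median of 1.26.

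Members at least 2-fold higher at 48 h (8) numbered 0 in near-equal lengths, 0 per kb and 3 binarised, where 0.0178%, 0.0708% and 3.25% of all genes were higher, and those lower (0) numbered 1 in nuclei of 3000 to 10000 counts (3.35% of all genes). At 72 h those higher (3) numbered 0 in that range, 0 in near-equal lengths and 0 per kb (8.22%, 1.08% and 1.06% of all genes), and those lower (5) numbered 8 in that range and 8 without the top 5% of barcodes (6.68% and 5.63% of all genes), and 0 in near-equal lengths and per kb, where 0.12% and 0.335% of all genes were lower. At 96 h those higher (0) numbered 9 per kb, where 73.1% of all genes were higher, and those lower (16) numbered 0, as did all genes (0%). Those lower at 96 h numbered 24 in nuclei of 3000 to 10000 counts and 21 over shared regions, where 8.73% and 9.61% of all genes were lower, and 12 to 18 in the other settings (6.32% to 9.04% of all genes). The difference between member and all-gene medians at 72 and 96 h was below 0 in every setting with a value. Shares of nuclei at 2000 counts were 86.7%, 81.0%, 67.3% and 63.0%, and without thinning 95.1%, 90.9%, 75.6% and 68.9%. The cause of these shifts was not tested. The Hist1h1c and 80% settings were chosen after seeing the data. The 96 h library held the fewest counts and the fewest peaks over the genome (77580, against 119839 to 164113), and 13 members had no peak there. The part of depth in peak calls was not tested.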
